A study of Mus musculus with 262 samples.

Results

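RNA of mouse kidney cells sorted on c-Kit was compared with RNA of cells sorted on DBA. These were 4 bulk samples of 262 in the series, chosen by their labels alone: 2 sorted on c-Kit and 2 sorted on DBA. All came from kidneys of male C57BL/6 mice aged 2 months, with no allele or treatment named in the labels. c-Kit is the receptor tyrosine kinase encoded by Kit, and DBA is Dolichos biflorus agglutinin, a plant lectin that binds terminal N-acetylgalactosamine. Both labels can be carried by more than 1 cell type, and the fractions are described here as sorted. How the tissue was dissociated and how RNA was isolated from these bulk samples is not described in the sources used. The labels do not say whether replicates came from separate animals or pools, so p-values measure only the spread between these samples. The table listed 47069 genes as TPM (transcript abundance), which are scaled for transcript length and to a fixed total per sample and keep no sequencing depth.

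The renal collecting duct is built of principal cells, which reabsorb sodium and water under aldosterone and vasopressin, and intercalated cells, which move acid and base. Intercalated cells are known for dense mitochondria and for a proton pump of the vacuolar type. Type A cells carry that pump apically and the anion exchanger encoded by Slc4a1 basolaterally, and type B cells carry pendrin, encoded by Slc26a4. The comparison addresses which functions beyond these markers separate cells bearing c-Kit from cells bearing the DBA epitope.

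Differences below are c-Kit minus DBA on the log2(TPM + 1) scale, which understates the change of genes near or below 1 TPM. Genes averaging 1 TPM or more over the 4 samples were tested, 14341 in all, and limma called 2315 higher in c-Kit (16.1%) and 4033 lower (28.1%) at a Benjamini-Hochberg adjusted p under 0.05, or 44.3% in either direction. Their median difference was -0.11. The balance of the directions depends on scaling. Quantile normalization gave 3055 higher and 3072 lower with a median of 0.02. TPM rescaled over genes that peak in collecting duct cells gave 1601 higher and 6334 lower of 15364 genes then tested, with a median of -0.31. With 1 of the DBA samples left out, 3343 and 3265 genes were called in all, and without 1 of the c-Kit samples 5489 and 4882. Counts of members called lower in a list in the fit of all 4 samples are therefore read against 28.1%, and members called higher against 16.1%. Fits with 1 sample left out or with another scaling called other shares of all genes. List counts from those fits are therefore not read against 28.1% and 16.1%. In bulk RNA, fewer cells of a type and less RNA per cell cannot be told apart.

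Kit itself had 757 and 755 TPM in the c-Kit and 17.9 and 18.5 TPM in the DBA samples, in the direction of the sort. The intercalated marker genes (5 of type A, 4 of type B and 6 common to them) were higher in c-Kit without exception, and those of principal cells, 8 in number, were lower. The summed TPM of the principal markers still reached 3759 and 2842 TPM in the c-Kit samples against 25868 and 23272 TPM in the DBA samples. The 10 proximal tubule markers were present in every sample and summed to 3489 to 5537 TPM, and 6 of them were lower in c-Kit. Markers of the distal convoluted and connecting tubule summed to 6353 and 6484 TPM in c-Kit against 1463 and 1395 TPM in DBA, and 2 of 7 were higher and 1 lower, or 1 to 2 higher with 1 sample left out. Most of that sum was Klk1, tissue kallikrein, named after its values were seen, with 5956 and 6122 against 904 and 896 TPM. Of 5 thick ascending limb markers 1 was higher and 1 lower, with sums of 662 to 1102 TPM over the 4 samples. The series also holds single cells that its authors named as type A, type B, principal, proximal tubule or non-epithelial. Genes with their highest single-cell mean in type A cells were called higher in 32.6% and lower in 10.2% of 2077 cases, and those highest in type B cells in 31.7% and 11.9% of 2387. For genes highest in principal cells the shares were 8.77% and 35.1% of 3260, in proximal tubule cells 9.30% and 37.6% of 2495, and in non-epithelial cells 9.04% and 40.0% of 2777. No animal is named for any single cell, so these single-cell means are descriptions without replicate error.

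**Figure D1:**
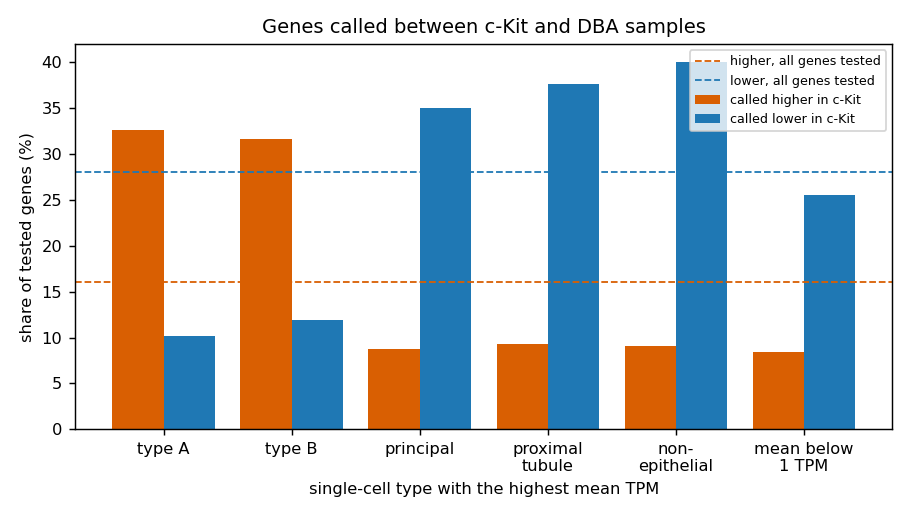
Share of tested genes called higher (orange) or lower (blue) in the c-Kit samples, in percent (y axis), for genes grouped by the single-cell type with their highest mean TPM (x axis). The higher share exceeded 16.1% for the type A and type B groups and lay below it for the others.

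Marker genes of non-epithelial cells were called in both directions. Of 14 macrophage and dendritic cell markers 10 were lower in c-Kit, with summed levels of 5010.1 and 4922 TPM against 14551 and 15210.0 TPM. Mrc1, the macrophage mannose receptor, had 2.15 and 1.79 TPM in the c-Kit and 23.6 and 29.8 TPM in the DBA samples. Of the other markers, Xcr1, a chemokine receptor of cross-presenting dendritic cells, was higher at 10.2 and 6.64 against 0.49 and 0.32 TPM, and so was Flt3, the receptor of a dendritic cell growth factor, at 6.83 and 5.06 against 0.26 and 0.18 TPM. Lyz2, the macrophage lysozyme, differed by 0.12 and was not called. Mast cells are known to depend on c-Kit, and 5 of the 6 tested mast cell markers were higher in c-Kit, with summed levels of 88.4 and 78.9 TPM against 11.8 and 12.3 TPM. Of these higher markers 4 have their highest single-cell mean in type A or B cells, and in bulk fractions of the series sorted with and without GFP 0 of the 6 tested markers had the higher mean in the GFP-positive samples. The part of mast cells in these values was not tested. The exception was Ms4a2, a chain of the IgE receptor, with 2.35 and 4.25 against 9.96 and 10.1 TPM, whose adjusted p by limma was 0.00618 to 0.0781 over the fits with 1 sample left out. The mast cell proteases Mcpt4 and Tpsab1 averaged under 1 TPM and were not tested, and both are listed at 0 in the DBA samples. Of the neutrophil markers 3 of 4 were higher in c-Kit, among them S100a9 with 31.4 and 38.8 against 0.37 and 1.57 TPM. Plasma cell markers were higher for 4 of 6, or 1 to 4 with any 1 sample left out, and lower for Prdm1. Endothelial markers summed to 317 to 485 TPM and 6 of 9 were lower in c-Kit, or 5 and 3 without the first or the second DBA sample.

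Genes outside the lists that peaked in intercalated single cells and had the largest positive differences covered several functions. Guca2a encodes guanylin, a peptide that activates guanylate cyclase C, and had 437 and 545 TPM in the c-Kit and 20.0 and 24.9 TPM in the DBA samples (difference 4.39, SE 0.14, adjusted p 4.7e-06, limma). Tshr, the thyrotropin receptor, had 35.4 and 36.3 against 0.65 and 0.61 TPM. Pygm, the muscle isoform of glycogen phosphorylase, had 134 and 128 against 5.73 and 5.77 TPM. Genes of this group were picked only where the c-Kit and DBA samples did not overlap. Malrd1 had 108 and 127 against 2.02 and 1.58 TPM and the largest difference of the group at 5.41. Hepacam2, an adhesion protein of the immunoglobulin superfamily, had 513 and 540.4 against 21.0 and 21.5 TPM. Cpsf4l (5.29), Tmem61 (4.91), Asb15 (4.60) and Ociad2 (4.50) completed the group. Gzmb, granzyme B of cytotoxic cells, was also picked with 45.3 and 32.0 against 0.07 and 0.02 TPM. It averaged 189 TPM in type A single cells but was detected in 4 of 87 of them, compared with 61 of 87 for Hepacam2.

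Picks that peaked in principal single cells were led by S100a14 (-3.24) and Dab1, an adaptor of the reelin receptor (-3.20). Apela encodes a peptide ligand of the apelin receptor. It was the most abundant of these picks, with 93.2 and 76.2 TPM in the c-Kit and 689.8 and 704 TPM in the DBA samples. Ache, acetylcholinesterase, had 9.73 and 6.81 against 78.9 and 74.9 TPM, and the collagen gene Col26a1 9.89 and 8.36 against 91.2 and 88.6 TPM. Sbspon (-3.18), Mgat4c (-3.13), Hacd4 (-3.07), Fam110b (-3.05) and the pseudogene Spr-ps1 (-3.07), whose reads may be shared with Spr, were the others. Some of these principal peaks rested on few of the 74 cells: S100a14 on 6, Spr-ps1 on 8, Ache and Sbspon on 12 each and Dab1 on 15. Apela was detected in 73 of 74 and Mgat4c in 37. Fam110b missed the threshold without either DBA sample (adjusted p 0.00211 to 0.0981 over the fits with 1 sample left out, limma). Picks that peaked in other cells and were higher in c-Kit were Ly6c2, Zfp750, Nr0b2, Emp2 and Plac8 (2.12 to 4.07). The lower ones were Ptgds, Gpc3, Gc, Epor and Stab1 (-3.84 to -2.81). Several peaks of the higher ones rested on few cells. Nr0b2 was detected in 1 of 32 non-epithelial and 5 of 87 type A cells. The same counts were 2 and 10 for Zfp750, 3 and 5 for Ly6c2, and 9 and 20 for Plac8. Emp2 was detected in 3 of 19 proximal tubule and 21 of 87 type A cells. Epor, the erythropoietin receptor, had 5.05 and 5.99 against 50.1 and 43.4 TPM and was detected in 3 of 32 non-epithelial and 4 of 74 principal cells. Ly6c2 has a near-identical neighbour, Ly6c1, and its value is uncertain for that reason.

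**Figure D2:**
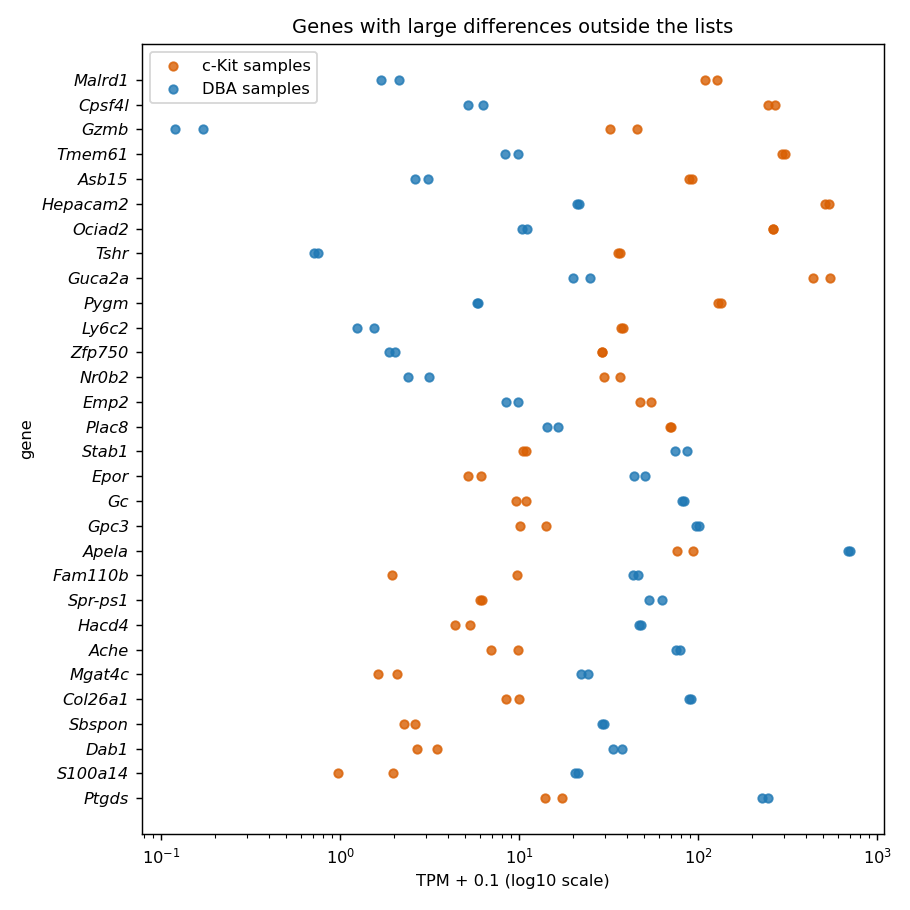
Genes chosen by size of difference outside the lists (y axis) with their TPM + 0.1 in each of the 4 samples (x axis, log10 scale), c-Kit samples in orange and DBA samples in blue. Only genes whose c-Kit and DBA samples did not overlap were chosen, so the separation shown follows from the choice.

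Foxi1, the forkhead transcription factor of intercalated cells, had 1072 and 1066 TPM in the c-Kit and 78.6 and 77.5 TPM in the DBA samples, so the promoters of the intercalated picks were searched for a forkhead core, GTAAACA, on either strand. The windows, from RefSeq on GRCm38.p6, run from 250 bases before to 50 bases after the start. The core was found in 2 of the 8 intercalated picks with a window, in 2 of 5 principal picks, in 1 of 10 intercalated markers and in 3.25% of 10284 tested genes. The 2 windows of intercalated picks are shown with the core in capitals, Guca2a from chr4:119637482-119637781 on the plus strand and Cpsf4l from chr11:113709968-113710267 on the minus strand.
Guca2a: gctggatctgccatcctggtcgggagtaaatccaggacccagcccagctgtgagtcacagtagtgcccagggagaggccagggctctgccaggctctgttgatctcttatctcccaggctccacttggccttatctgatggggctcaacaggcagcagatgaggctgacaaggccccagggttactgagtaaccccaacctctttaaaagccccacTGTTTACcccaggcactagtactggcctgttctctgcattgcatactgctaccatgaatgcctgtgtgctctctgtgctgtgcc
Cpsf4l: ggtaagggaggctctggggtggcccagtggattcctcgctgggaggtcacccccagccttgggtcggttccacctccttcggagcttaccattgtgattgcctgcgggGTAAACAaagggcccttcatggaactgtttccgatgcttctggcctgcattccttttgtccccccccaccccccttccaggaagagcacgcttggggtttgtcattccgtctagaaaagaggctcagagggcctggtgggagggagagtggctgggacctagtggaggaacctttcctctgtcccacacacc

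Genes of mitochondrial respiration were higher in c-Kit with few exceptions. Of 83 nuclear genes of the respiratory chain and ATP synthase, 78 were higher in c-Kit (94% against 16.1% of all genes), with a median difference of 0.65. By complex these were 36 of 37 for complex I, 27 of 29 for complexes II to IV and 15 of 17 for ATP synthase. Atpif1, the inhibitor of ATP synthase, was called lower by a small margin (-0.22), which no fit with 1 sample left out kept (adjusted p 0.0604 to 0.187, limma). Ndufv3 and Atp5g2 were not called, nor were the tissue-specific isoforms Cox4i2 (0.68 and 1.98 TPM in the c-Kit samples) and Cox6a2 (1.44 and 2.06 TPM). Ndufa10 of complex I had 819 and 890.0 against 384 and 388 TPM, Sdhd of complex II 1329 and 1291 against 631 and 612 TPM, Uqcrb of complex III 2873 and 3055 against 1357 and 1427 TPM, and Cycs, cytochrome c, 568 and 647 against 265 and 272 TPM. Both c-Kit samples lay above both DBA samples in these 4 genes, which were named for the size of their differences. Cox7a1 stood apart with a difference of 1.70. In the single cells, type A means exceeded principal means for 73 of the 83 genes. In bulk GFP fractions of the same series, sorted from Atp6v1b1GFP mice, the mean CPM (read counts per library total) of the GFP-positive samples exceeded that of the GFP-negative samples for 22 of 83. That sort separates kidney cells with and without GFP fluorescence and so has another comparison group than DBA. Neither the type A count nor the GFP count was set beside a share over all genes tested. The proximal and distal tubule markers that differed between the c-Kit and DBA samples were given above, and their part in the respiration genes was not tested.

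**Figure D3:**
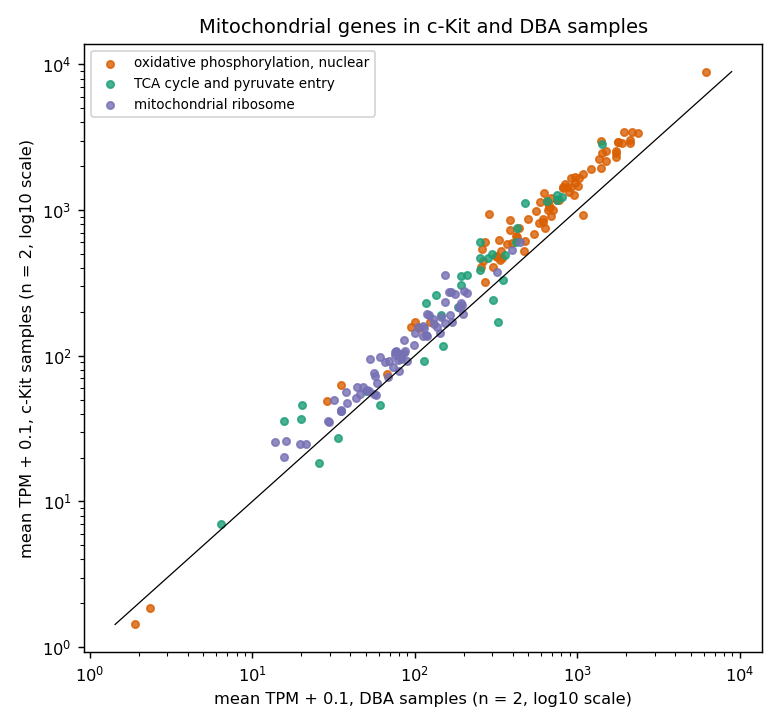
Mean TPM + 0.1 in the DBA samples (x axis) and in the c-Kit samples (y axis), both log10, for nuclear genes of oxidative phosphorylation, the TCA cycle and the mitochondrial ribosome. Points above the diagonal are higher in c-Kit. Of the oxidative phosphorylation genes 78 of 83 were called higher, of the TCA cycle genes 24 of 34 and of the mitochondrial ribosome genes 52 of 76.

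Genes of the mitochondrial genome and the matrix were mostly higher as well. Of the 13 protein-coding mitochondrial genes, 7 could be tested and 6 were higher, mt-Cytb having 12581 and 12966 against 7449.7 and 8673 TPM, and mt-Nd2 was not called (0.41). The other 6, among them mt-Co2, mt-Co3 and mt-Atp6, were listed at 0 in all 4 samples and were not tested. For the TCA cycle and pyruvate entry 24 of 34 genes were higher and 6 lower, with a median of 0.65. Pdhb, a subunit of pyruvate dehydrogenase, had 576 and 634 against 264 and 243 TPM. The members called lower included the cytosolic isoform Idh1 (-0.93), while its mitochondrial counterpart Idh2 (0.61) was higher. The lower count of 6 was 2 to 5 with 1 sample left out. Mitochondrial ribosomal proteins were higher for 52 of 76 and lower for 0, with Mrps6 at 354 and 367 against 145 and 162 TPM. After rescaling over genes that peak in collecting duct cells, 25 were higher and 4 lower, and without the first or the second DBA sample 23 and 22 were higher. Cytosolic ribosomal proteins were higher for 0 of 76 and lower for 10, with a median of -0.10, and the lower count was 1 to 16 with 1 sample left out and 47 after that rescaling.

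Regulators of mitochondrial biogenesis were called less uniformly. Esrrg, an orphan nuclear receptor of oxidative tissues, had 103 and 106 TPM in the c-Kit and 35.8 and 38.3 TPM in the DBA samples (difference 1.47, SE 0.07, adjusted p 2.26e-05, limma). Its coactivators Ppargc1b (1.54) and Ppargc1a (0.66) were also higher. Esrra (0.02) and Ppara (0.06) were not called. Nrf1 was called lower (-0.34), but not with any 1 sample left out (adjusted p 0.0598 to 0.168, limma). Over the list 7 of 19 genes were higher and 2 lower, and no gene of it was lower with any 1 sample left out. A response element of these receptors, TNAAGGTCA on either strand, was found in the promoter window of 3 of 67 oxidative phosphorylation genes (4.48%). It was found in 0 of 31 TCA cycle genes, 0 of 67 mitochondrial ribosome genes and 0.914% of 10284 tested genes. The windows of Sdhd, from chr9:50603800-50604099 on the minus strand, and Ndufb4, from chr16:37654319-37654618 on the minus strand, are shown with the element in capitals; both genes were higher in c-Kit (1.07 and 0.55), Ndufb4 with an adjusted p of 0.0171 to 0.0536 by limma over the fits with 1 sample left out, the highest without the second c-Kit sample. A match describes letters in this window and does not show binding.
Sdhd: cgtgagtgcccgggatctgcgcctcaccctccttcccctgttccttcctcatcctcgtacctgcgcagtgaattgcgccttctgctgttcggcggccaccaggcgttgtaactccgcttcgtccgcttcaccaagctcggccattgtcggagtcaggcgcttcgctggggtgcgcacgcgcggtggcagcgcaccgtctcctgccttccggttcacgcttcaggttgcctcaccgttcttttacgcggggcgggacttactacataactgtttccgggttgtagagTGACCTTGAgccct
Ndufb4: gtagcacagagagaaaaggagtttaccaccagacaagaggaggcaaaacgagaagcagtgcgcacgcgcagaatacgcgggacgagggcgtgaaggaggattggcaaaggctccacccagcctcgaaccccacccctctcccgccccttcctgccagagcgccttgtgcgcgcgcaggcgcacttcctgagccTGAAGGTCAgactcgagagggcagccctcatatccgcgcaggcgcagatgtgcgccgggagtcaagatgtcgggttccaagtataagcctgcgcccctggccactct

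Slc2a4, the insulin-regulated glucose transporter GLUT4, had 209 and 193 TPM in the c-Kit and 15.7 and 18.0 TPM in the DBA samples (difference 3.50, SE 0.09, adjusted p 2.87e-06, limma; chromosome 11, 69942539 to 69948188 on GRCm38). Cpt1b, the muscle isoform of the enzyme that admits fatty acids to mitochondria, had 81.2 and 85.0 against 4.27 and 5.41 TPM (chromosome 15, 89416405 to 89425863 on GRCm38). The liver isoform Cpt1a was called lower (-0.26), with an adjusted p by limma of 0.0213 to 0.178 over the fits with 1 sample left out. Ak1, a cytosolic adenylate kinase, was higher (1.97). Ckmt1, the mitochondrial creatine kinase of non-muscle tissues, had 1409.5 and 1406 against 265 and 249 TPM, whereas Gatm, which starts creatine synthesis and peaks in proximal tubule single cells, was lower (-1.39).

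Of the 33 glycolysis genes 8 were higher and 18 lower, and without the first or the second DBA sample 7 and 5 were higher and 11 and 11 lower. Pfkm, a phosphofructokinase, was higher (1.15). The lactate dehydrogenase subunits went in opposite directions, Ldhb having 5866 and 5753 against 4128 and 3771 TPM and Ldha 1030.2 and 1016 against 1373 and 1349 TPM. Aldoc (-1.70), the activator-producing enzyme Pfkfb3 (-1.66) and the monocarboxylate carrier Slc16a1 (-1.81) were lower. For fatty acid oxidation and peroxisomes 16 of 45 were higher and 7 lower, Acadvl, the very long chain acyl-CoA dehydrogenase, by 0.82. That balance turned to 12 higher and 15 lower after rescaling over collecting duct genes, and the lower count was 1 and 2 without the first or the second DBA sample. The largest difference in the pentose phosphate and NADPH list belonged to a folate enzyme. Aldh1l1, cytosolic formyltetrahydrofolate dehydrogenase, had 1702 and 1733 against 106 and 116 TPM (difference 3.94, SE 0.07, adjusted p 5.87e-07, limma; chromosome 6, 90486427 to 90600203 on GRCm38). Mthfd1, which acts in the same folate cycle, had 428 and 412 against 136 and 126 TPM. Aldh1l1 was detected in 82 of 87 type A and 27 of 74 principal single cells. Glutathione and antioxidant genes split, with 13 of 52 higher and 19 lower, the latter 13 and 10 without the first or the second DBA sample. Gclc, which limits glutathione synthesis, was higher (381 and 408 against 174 and 168 TPM) and Gstm2, a glutathione transferase with close paralogs, lower (337 and 281 against 1488 and 1333 TPM).

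Acid and ion transport genes went both ways. Of 24 proton pump genes 15 were higher and 5 lower, among them Atp6v1e1 (2.15) and the lower Atp6v0d1 (-1.42), whose paralog Atp6v0d2 was higher (4.56). The intercalated markers above also hold pump subunits, Atp6v0d2 among them, so part of the higher count repeats the markers. Of 42 genes of acid-base carriers and carbonic anhydrases 11 were higher (26.2%) and 16 lower (38.1%), with a median of -0.23. Among the higher ones beyond the exchangers used as markers were Car12 (2.65), Car2 (1.42), the sodium-proton exchanger Slc9a2 (2.08) and Slc26a7 (2.02). Bsnd, which encodes barttin, an accessory subunit of chloride channels, had 457 and 437 against 23.8 and 28.8 TPM. Lrrc8e, a subunit of volume-regulated anion channels, was higher (2.60). Potassium channel genes Kcnj1 (-2.27), Kcne1 (-2.54) and Kcnj16 (-1.73) were lower. Over the list of potassium and chloride channels 9 of 40 were higher (22.5%) and 19 lower (47.5%). In the sodium and aldosterone list 15 of 32 were lower and 9 higher, the latter including Wnk1 (1.78), Fxyd2 (1.52) and the protease St14 (1.27). Sgk1, the aldosterone-induced kinase, was lower (-1.61). Without the first or the second DBA sample the higher count in this list was 5 and 6. The distal tubule uses several of these transporters, and the part of its cells in these values was not tested.

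Hormone and metabolite receptors were called in both directions. Of 68 tested G-protein-coupled receptors 15 were higher (22.1%) and 38 lower (55.9%), and 15 were not called. The lower count was 25 and 22 without the first or the second DBA sample. On the c-Kit side, Oxgr1, the receptor of 2-oxoglutarate, and Avpr1a, the V1a vasopressin receptor, were the largest (5.59 and 4.83). Receptors of peptide hormones were among the others. Gcgr, the glucagon receptor, had 226 and 254 TPM in the c-Kit and 19.1 and 21.7 TPM in the DBA samples (difference 3.49, SE 0.09, adjusted p 3e-06, limma). Calcr, the calcitonin receptor, had 23.4 and 23.6 against 0.17 and 0.17 TPM, and Sctr, the secretin receptor, 18.6 and 20.0 against 0.55 and 0.51 TPM. P2ry14, the receptor of UDP-glucose, had 91.3 and 90.6 against 3.22 and 4.72 TPM. The groups did not overlap in these 4 genes, which were named for large differences, so this is no separate support. Calcr was detected in 13 of 87 type A, 0 of 23 type B and 2 of 74 principal single cells, and Gcgr in 23 of 87, 10 of 23 and 1 of 74. P2ry14 was detected in 28 of 87, 1 of 23 and 7 of 74.

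Among the receptors called lower, Avpr2, the V2 vasopressin receptor that raises cyclic AMP and one of the principal markers above, differed by -2.96. The prostaglandin receptors Ptger1 (18.5 and 16.8 against 115 and 102 TPM) and Ptger4 (-1.85), the nucleotide receptor P2ry2 (2.99 and 1.35 against 13.7 and 14.8 TPM), the lysophosphatidic acid receptor Lpar1 (-1.96) and the oestrogen-binding Gper1 (8.63 and 6.80 against 49.6 and 39.6 TPM) were lower in c-Kit. Ptger3, also a marker of the thick ascending limb, was higher at 2.83. Adgrg6, an adhesion receptor, had 1.15 and 0.98 against 12.8 and 11.6 TPM. P2ry13, P2ry6 and P2ry12 were lower too (-2.42, -1.93 and -1.57) and peak in non-epithelial single cells, as do the macrophage markers that were lower in the same samples; the part of those cells in the result was not tested. Among purinergic and ectonucleotidase genes 19 of 31 were lower, or 11 and 14 without the first or the second DBA sample, including the gap junction gene Gjb1 (-1.65).

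**Figure D4:**
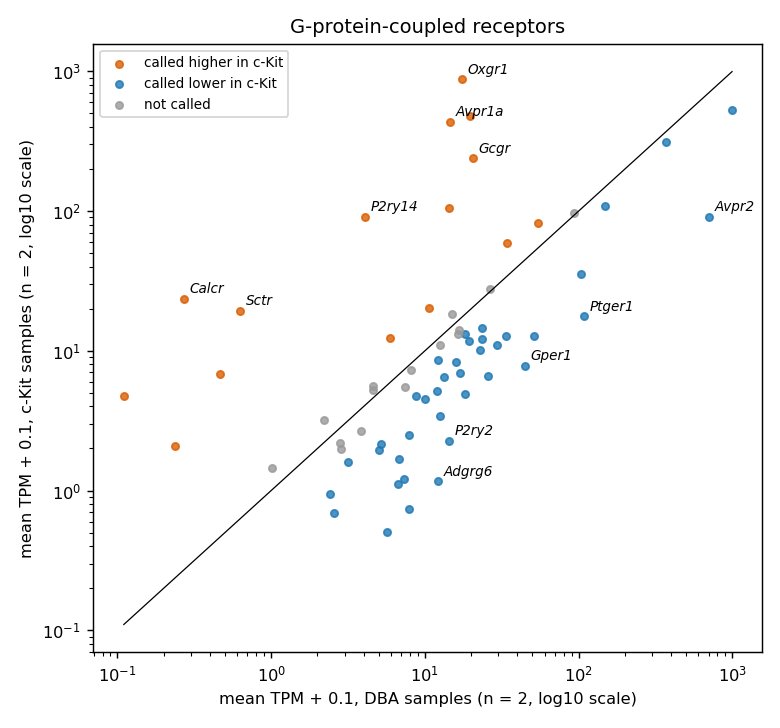
Mean TPM + 0.1 in the DBA samples (x axis) and the c-Kit samples (y axis), both log10, for 68 tested G-protein-coupled receptors, orange where called higher in c-Kit, blue where called lower and grey where not called. Oxgr1, Avpr1a, Gcgr and P2ry14 lie far above the diagonal and Avpr2, Ptger1 and P2ry2 below it.

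Downstream of these receptors, genes of calcium signalling were called in both directions. Itpr2, a calcium release channel of the endoplasmic reticulum, had 196 and 207 TPM in the c-Kit and 44.8 and 56.4 TPM in the DBA samples, and the phospholipases Plcg2 (245 and 224 against 39.3 and 42.5 TPM) and Plcd4 (2.95) were higher. Rcan2, an inhibitor of calcineurin, had 398 and 430.5 against 25.4 and 28.6 TPM. Camkk2 (-1.82) and the calcium pump Atp2b2 (-2.39) were lower. Over the calcium list 10 of 56 genes were higher and 23 lower, the lower count being 11 and 9 without the first or the second DBA sample. In the cyclic AMP list 11 of 42 were higher and 16 lower, and the phosphodiesterases divided: Pde1a (2.00), Pde4c (1.86) and Pde7a (1.21) were higher, and Pde3b (-2.11), Pde8b (-1.99), Pde10a (-1.95) and Pde4d (-1.48) lower. Rapgef4, an exchange factor opened by cyclic AMP, had 27.4 and 33.6 against 3.99 and 4.93 TPM. Adenylate cyclase Adcy5 was higher (2.45), as was the regulatory subunit Prkar1b (2.39).

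Kitl, the ligand of c-Kit, had 4.77 and 4.47 TPM in the c-Kit and 22.4 and 24.3 TPM in the DBA samples. Among 36 genes of Kit signalling 2 were higher and 20 lower, the adaptor Grb10 being the largest positive at 51.9 and 56.2 against 7.59 and 7.79 TPM. The lower Kit signalling genes numbered 7 and 5 and the higher ones 2 and 1 without the first or the second DBA sample. Of the other receptor tyrosine kinases 5 of 37 were higher and 20 lower, or 10 and 11 lower with those samples left out in turn. Met, the receptor of hepatocyte growth factor, had 142 and 149 against 74.0 and 62.4 TPM, while Egfr (-2.10) and Fgfr2 (-1.42) were lower. Of the ligands of these kinases 5 of 31 were higher (16.1%, the same share as over all genes) and 15 lower (48.4%). The Egfr ligands Btc (13.8 and 9.73 against 82.7 and 79.9 TPM), Tgfa (-1.83) and Hbegf (-1.53) were lower. Areg and Ereg, also Egfr ligands, averaged under 1 TPM and were not tested. The vitamin K-dependent ligands Pros1 (204 and 234 against 35.7 and 31.3 TPM) and Gas6 (0.64) were higher, and Axl, a receptor they share, which peaks in non-epithelial single cells, was lower (-2.20).

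Developmental signalling genes showed lower calls near or above the share of all genes. In the Wnt list 19 of 41 were lower (46.3% against 28.1%) and 4 higher. Wnt9b (1.60 and 2.30 against 30.4 and 25.1 TPM) and Wnt7b (2.27 and 1.41 against 21.7 and 19.3 TPM), ligands of the ureteric bud lineage, were among them, with Fzd1 (11.2 and 8.88 against 60.4 and 53.0 TPM) and Tcf7l1 (-2.46). For TGF-beta and BMP signalling 19 of 44 were lower and 5 higher. Bmp8a stood out on the c-Kit side with 44.4 and 49.2 against 0.94 and 1.90 TPM, and Gdf15 (-2.56) and Tgfbr2 (-1.90) were lower. Retinoic acid genes included the synthesis enzymes Aldh1a1 (1.91 and 3.98 against 21.7 and 25.0 TPM) and Aldh1a2 (-2.57) among 9 lower of 16. Without the first or the second DBA sample the lower counts were 10 and 11 for Wnt, 12 and 13 for TGF-beta and BMP and 6 and 5 for retinoic acid genes, and the higher Wnt count was 1 and 1. In the Notch list 14 of 30 were lower, Heyl and Nrarp with differences of -2.34 and -1.91, and 3 higher. Hippo targets Ankrd1 (-1.97), Cyr61 (-1.51) and Ctgf (-1.45) were lower, as were 13 of 24 genes of that list. The hedgehog receptor Ptch1 was higher (23.8 and 20.2 against 6.62 and 6.99 TPM), in a list with 1 of 8 higher and 4 lower, or 0 to 3 lower with 1 sample left out. Of the semaphorin and netrin list 16 of 29 were lower, Ntn4 having 33.2 and 23.0 against 134 and 119 TPM, and Sema3b was higher (1.60). With the same samples left out the lower counts were 7 and 6 for Notch, 7 and 8 for Hippo and 9 and 9 for semaphorin genes.

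Genes of cell architecture had many lower calls. Of 43 integrin and basement membrane genes 30 were lower (69.8%) and 8 higher, or 16 and 19 lower and 5 and 4 higher without the first or the second DBA sample. Npnt, the basement membrane protein nephronectin, had 94.5 and 79.1 TPM in the c-Kit and 814 and 756 TPM in the DBA samples (difference -3.17, SE 0.09, adjusted p 4.19e-06, limma). The basement membrane genes Col4a1 (-1.39), Agrn (-1.56), Nid1 (-1.48) and Lamb1 (-1.26) were lower too. Spp1, osteopontin, was higher at 3466 and 3582 against 1651 and 1463 TPM, and Itgb7, an integrin chain of lymphoid and mast cells, had 20.0 and 19.5 against 1.68 and 2.70 TPM. Of 61 actin, microvillus and myosin genes 39 were lower (63.9%), among them Myh10 (9.43 and 11.1 against 64.6 and 62.4 TPM) and the actin-severing Scin (39.7 and 34.7 against 219 and 189 TPM). Eps8, which caps and bundles actin in microvilli, went the other way with 588 and 663 against 67.1 and 69.6 TPM. Macrophage and proximal tubule markers were lower in the same samples, and their part in these counts was not tested. Of the members, 7 of the lower actin genes and 4 of the lower integrin and basement membrane genes peak in non-epithelial single cells, 12 and 8 in proximal tubule cells and 17 and 11 in principal cells.

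Junction genes were called in both directions. Of 37 tight junction genes 19 were lower and 7 higher, or 11 and 8 lower and 5 and 3 higher without the first or the second DBA sample, with Cldn1 (7.57 and 6.85 against 51.7 and 45.5 TPM) and Cldn4 (34.6 and 30.0 against 76.7 and 74.1 TPM) on the lower side and Cldn6 (17.7 and 12.8 against 2.87 and 2.57 TPM) on the higher. For cadherins, desmosomes and keratins 19 of 32 were lower. Cdh3, P-cadherin, had 3.04 and 3.03 against 17.0 and 18.7 TPM, whereas Krt80 was higher with 101 and 107 against 13.4 and 14.1 TPM. Primary cilia are known to be absent from intercalated cells. Of 80 cilium genes in 3 lists 26 were lower (32.5%, against 28.1% of all genes) and 3 higher, or 9 and 9 lower without the first or the second DBA sample and 2 to 5 higher with any 1 sample left out. The lower ones included Pkhd1, mutated in recessive polycystic kidney disease (-1.15), Dzip1l (5.79 and 6.95 against 27.6 and 26.1 TPM) and Anks6 (7.51 and 5.32 against 27.4 and 26.0 TPM). Pkd1 (0.09) and Pkd2 (-0.02) were not called, and Ift46 (1.00) and Mkks (1.24) were higher.

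The sort lectin recognises a sugar, so the enzymes that build such sugars were read as a group. Of 18 tested genes that transfer or extend N-acetylgalactosamine 13 were lower in c-Kit (72.2%), or 7 and 7 without the first or the second DBA sample, and 1 was higher, which neither of those fits kept. B4galnt2, which adds N-acetylgalactosamine to make the Sd(a) antigen, had 0.4 and 0.04 TPM in the c-Kit and 15.4 and 12.2 TPM in the DBA samples (difference -3.61, SE 0.23, adjusted p 6.12e-05, limma; chromosome 11, 95865943 to 95914891 on GRCm38). Galnt12, which starts mucin-type chains, had 5.39 and 5.33 against 35.4 and 32.2 TPM, and Galnt3 27.8 and 20.5 against 64.1 and 61.9 TPM. These 3 genes were named for large differences, so the lack of overlap between their groups adds no separate support. B4galnt2 was below a mean of 1 TPM in every single-cell type. Of the 13 lower genes that transfer or extend N-acetylgalactosamine, 6 peak in proximal tubule, 2 in non-epithelial and 2 in principal single cells. The part of these cell types in that count was not tested. Sialyl and fucosyl transferases were lower for 12 of 19, or 4 and 3 with those samples left out in turn, led by St6gal1 (23.9 and 20.5 against 106 and 98.1 TPM) and St6galnac2 (42.2 and 37.3 against 173 and 162 TPM), both of which peak in principal single cells.

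In the lysosome list 8 of 56 were higher and 26 lower, or 16 and 15 lower without the first or the second DBA sample; the higher count was 4 to 9 with 1 sample left out. Mcoln3, a cation channel of endolysosomes, had 103 and 81.3 against 768 and 658 TPM. Of the lower lysosomal genes 13 peak in non-epithelial single cells, among them Laptm5 (-1.60) and Ctss (-1.60). In endocytosis, Cav1, caveolin of plasma membrane pits, had 116 and 92.3 against 521 and 473 TPM and its partner Cav2 was lower (-0.96), together with Ehd2 (-2.46). For exocytosis the largest positive difference was Sytl5, a Rab27 effector (5.50 and 6.33 against 0.65 and 0.53 TPM). Of 41 exocytosis genes 8 were higher (19.5%) and 13 lower (31.7%), near the shares of all genes (16.1% and 28.1%). Both counts fell without either DBA sample. Of the metal handling genes, Cp, ceruloplasmin (-3.15), and Lcn2, a siderophore-binding protein (16.9 and 11.9 against 114 and 127 TPM), were lower.

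Transcription factors on the c-Kit side beyond the markers were Foxp1 (133 and 125 against 31.9 and 32.4 TPM) and Foxq1 (70.7 and 68.1 against 11.5 and 9.94 TPM), and on the DBA side Gata2 (86.6 and 79.2 against 265 and 256 TPM), Tfap2b (-1.62), Ehf (-1.33) and Elf5 (-2.38). Over the list 11 of 51 were higher and 23 lower, or 7 and 8 higher without the first or the second DBA sample. Hox genes, which set position along the body axis, were called in both directions, 7 higher and 8 lower of 21. Among called members Hoxa7, Hoxa9 and Hoxa10 were higher (1.29 to 1.60), as was Hoxc9 (1.34), and Hoxb2, Hoxb6 and Hoxb9 were lower (-0.98 to -0.72). Hoxc6 was called higher (0.84), but its adjusted p by limma was 0.023 to 0.134 over the fits with 1 sample left out. In the D cluster Hoxd10 had 51.4 and 44.5 against 8.16 and 5.73 TPM, while Hoxd3, Hoxd4 and Hoxd8 were lower (-1.22 to -0.39).

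Of 25 immediate early genes, which cells switch on within minutes of stress or growth signals, 23 were lower (92%) and 0 higher, with a median of -1.30. Egr1 had 293 and 269 TPM in the c-Kit and 1395 and 1282 TPM in the DBA samples, Fos 1029.7 and 1004 against 2974 and 2838 TPM and Fosb 9.28 and 7.11 against 56.4 and 67.4 TPM. Of these lower genes 10 peak in non-epithelial and 7 in principal single cells. Heat shock genes went both ways, Hspa1a (-0.82) and Hspb8 (-1.99) being lower and Hspe1 (0.60) higher. The order of sorting and the handling times are not given in the labels, and their part in these genes was not tested.

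Immune effector genes were called in both directions. Innate defence genes were higher for 12 of 42 (28.6%) and lower for 23 (54.8%), or 8 to 11 and 16 to 23 with 1 sample left out, the higher ones including S100a9, given above with the neutrophil markers, and 11 of the lower ones peaking in non-epithelial single cells. The macrophage markers were lower in the same samples, and their summed levels were 5010.1 and 4922 TPM in c-Kit against 14551 and 15210.0 TPM in DBA. Of 52 interferon response genes 42 were lower (80.8%) and 1 was higher (0 to 2 with 1 sample left out), with a median of -0.90; 34 of the lower genes peak in non-epithelial single cells, and the lower count was 26 and 25 without the first or the second DBA sample. Irf1 had 50.4 and 45.7 against 148 and 163 TPM and Isg15 10.9 and 8.61 against 26.8 and 28.3 TPM. Complement and clotting genes were lower for 28 of 33, C3 having 5.83 and 6.21 against 63.3 and 58.6 TPM. Klkb1, plasma prekallikrein, was the exception in size, with 149.9 and 157 against 2.90 and 3.70 TPM, and its substrate gene Kng2 was higher as well (1.47). Klkb1 was detected in 34 of 87 type A and 5 of 32 non-epithelial single cells. Among chemokines and receptors 19 of 33 were lower and 4 higher, or 2 to 5 higher with 1 sample left out, the atypical receptor Ackr3 having 21.3 and 21.6 against 163 and 159 TPM and Ccr2, of monocytes, 26.5 and 28.4 against 6.14 and 6.18 TPM. MHC class II genes were lower for 10 of 13 and higher for the others, which included H2-Oa (1.14) and H2-Ob (0.73). With 1 sample left out 0 to 1 of these were called higher. The part of the makeup of immune cells in these lists was not tested.

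Proteasome genes were higher for 4 and lower for 2 of 31, a balance that became 1 and 17 after rescaling over collecting duct genes. The higher proteasome count was 0 to 3 with 1 sample left out, and no proteasome gene was then lower. Genes of protein folding in the endoplasmic reticulum were higher for 1 and lower for 7 of 42, or 1 to 5 lower with 1 sample left out. Pdia6, a disulfide isomerase, was the folding gene that was higher (501 and 523 against 322 and 292 TPM). Sterol synthesis genes were higher for 9 and lower for 6 of 28, Pmvk by 1.29, and the lower count was 0 to 5 with 1 sample left out. Cell cycle genes were lower for 11 of 38, or 28.9%, near the 28.1% of all genes, and for fewer without either DBA sample. Ccnd1 was among the lower ones (17.7 and 14.2 against 68.0 and 60.4 TPM). Clock genes were lower for 13 and higher for 3 of 19, the lower count being 5 under quantile normalization and 3 to 7 with 1 sample left out, when the higher count was 1 to 3. Per2, a repressor of the clock, was lower (-1.42).

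**Figure D5:**
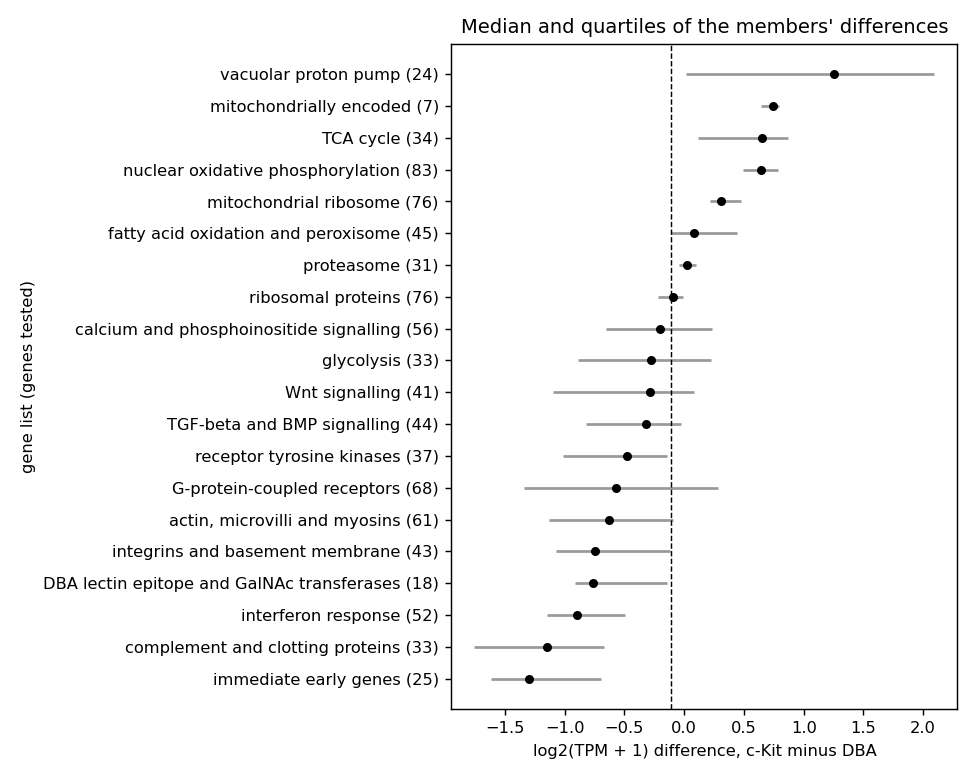
Median log2(TPM + 1) difference, c-Kit minus DBA (x axis), for gene lists described in the text (y axis), with bars from the lower to the upper quartile of the tested members. The dashed line is the median of all genes tested, -0.11; oxidative phosphorylation lies at 0.65 and immediate early genes at -1.30.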

How the data were processed

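Bulk RNA of 4 sorted samples was analysed from the TPM table that the authors deposited, without counts or depth. The submitters' processing notes name STAR 2.5.1b, RSEM 1.2.31, Seurat and GRCm38.p5, with no role or order. Single-cell TPM deposited by the authors, with their cell type names, and raw counts of the GFP fractions deposited by the authors, turned here into CPM, were used only as descriptions, since each table was normalized separately. Sequencing depth of the c-Kit and DBA samples is therefore unknown and no counting interval is given.

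TPM were set to log2(TPM + 1), genes averaging 1 TPM or more across the 4 samples were kept, and c-Kit was compared with DBA in limma 3.58.1 (R 4.3.3) with a variance trend and Benjamini-Hochberg adjustment over all genes kept. The procedure was also run on simulated data, in which the gene spreads were shuffled and far fewer genes changed than were called here. No result given here rests on that run. Gene lists (59 of pathways and 18 of cell type markers) were described by counts and medians without a test; members and lists were chosen with earlier results of these data known. Named genes are list members, at most 6 per list and direction among those with the largest differences, plus uncalled members central to a pathway; outside the lists, the 10 largest differences per direction that peaked in collecting duct single cells and the 5 that peaked elsewhere were named, with at least 20 TPM in the higher group. The genes named outside the lists also had to be called, with c-Kit and DBA samples that did not overlap. A single cell counted as detecting a gene at 1 TPM or more. Gene coordinates are from GENCODE M21 on GRCm38. Alternatives were other pseudocounts, filters and scalings, no variance trend, a replicate term and leaving out each sample. Values of some list members are not reported here.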

Additional observations from a re-analysis of the deposited data

How the results depend on the processing

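The named genes that were called kept their direction under all alternatives in which they were tested. Eno3, Me1, Gamt, Sgk3, Znrf3, Ift88, Hsph1, Npas2, Per3, Hoxb7 and Hoxd9, counted among them, were called but lost the call without at least 1 sample, and were left out of the text above for that reason after those fits were seen. Calls lost among all of them numbered 7 and 10 without the first or the second c-Kit sample and 16 and 17 without the first or the second DBA sample. Leaving out 1 sample at a time gave 3265 to 5489 genes called in all, 1313 to 1901 higher and 1952 to 3588 lower; both lowest totals came from leaving out a DBA sample. Over the same fits, oxidative phosphorylation genes were higher for 66 to 77, mitochondrial ribosome genes for 22 to 45, and lower counts were 22 to 35 for G-protein-coupled receptors, 16 to 26 for integrins and basement membrane and 25 to 39 for interferon genes. After rescaling over collecting duct genes 6334 genes were lower and 25 mitochondrial ribosome genes higher, and without a variance trend 33 of the latter were higher; the causes were not tested. A filter at a mean of 10 TPM, under which fewer genes were tested, left 20 lower receptors and 18 lower integrin and basement membrane genes. The labels do not say whether same-numbered samples were paired. The correlation of their deviations (0.026), with 2 samples in each group, cannot settle this. The fit with the replicate block called 6271 genes, 2288 higher and 3983 lower. With 2 samples in each group, differences as small as those of most proteasome and ribosomal genes can be missed.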
